A study of Mus musculus with 16 samples.

Results

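The endoplasmic reticulum (ER) folds and exports the proteins that a cell secretes or places in its membranes, and 33 mouse genes of this machinery are described here. They were chosen by name from the chaperones, disulfide and lectin enzymes, stress sensors, degradation factors and translocation channel of the ER. All 33 of 33 were found among the 22322 genes of each deposited table, and all 33 passed the filter on low counts in both tissues. Diet-induced obese (DIO) mice received halofuginone, a plant-derived inhibitor of prolyl-tRNA synthetase, at 100 μg/kg, or vehicle. Injections were intraperitoneal, 2 days apart, and tissue was taken after 8 weeks. Poly(A)-selected RNA was sequenced from liver (5 libraries per group) and from white adipose tissue (3 per group), labelled HFD for vehicle and H100 for halofuginone. All groups were thus DIO mice that differed in the injected agent. Strain, sex, age and fat depot are not given in the sources used here, nor whether liver and fat came from the same animals or whether animals were pooled.

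Proteins enter the ER through the Sec61 channel, are folded by chaperones such as BiP (the product of Hspa5) with disulfide and lectin enzymes, and are sent back to the cytosol for degradation when folding fails. Unfolded protein in the ER is sensed by IRE1 (from Ern1), ATF6 and PERK. IRE1 splices the Xbp1 transcript, and XBP1 and ATF6 raise chaperone genes through a short promoter element, whereas PERK acts through eIF2 and the transcription factor ATF4, which other kinases also feed. Hepatocytes carry a large secretory load of plasma proteins, and adipocytes secrete hormones such as adiponectin.

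The ER stress element (ERSE), the letters CCAAT and CCACG with 9 bases between them, is the element that ties many of these genes together, and it is shown here because the set divides by it. Promoters came from RefSeq on the mouse build GRCm38.p6, and 27 of the 33 genes had 1 or more there, with 28 promoters in all. In the 250 bases before the start site, searched on both strands, the ERSE was present in 10 of the 28 promoters (35.7%), against 0.113% of 32851 promoters of the same length. A related element, ERSE-II (ATTGG and CCACG with 1 base between), was present in 1 of the 28, that of Herpud1, against 0.0304% of all. The letters TGACGTGG, an ATF6 site that can overlap the CCACG of either element, had no match in these windows against 0.563% of all. TGATGNAA, the composite element bound by ATF4 and its partners, matched 1 promoter, again that of Herpud1, against 3.45% of all. Only exact matches were counted, so promoters without a match may still hold a variant of the element. The part CCACG alone was in 21 of the 28 promoters (28.3% of all), and CCAAT alone also in 21 (33.8% of all). Such matches describe letters in a window and are not evidence of binding. The members were chosen by name as ER genes, so their share is not a separate test of the element. The elements of 6 promoters are given below in the direction of the gene, with the element in capitals and 6 bases on each side. CGTGG followed by ATTGG is the ERSE read on the other strand. They lie at chr2:34772019-34772049 (plus strand, Hspa5), chr10:86705527-86705662 (minus, Hsp90b1, with 2 elements), chr8:84847069-84847099 (minus, Calr), chr15:88819514-88819544 (plus, Creld2), chr14:118937821-118937851 (plus, Dnajc3) and chr8:94386371-94386393 (plus, Herpud1, ERSE-II).
Hspa5: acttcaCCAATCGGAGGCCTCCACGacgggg
Hsp90b1: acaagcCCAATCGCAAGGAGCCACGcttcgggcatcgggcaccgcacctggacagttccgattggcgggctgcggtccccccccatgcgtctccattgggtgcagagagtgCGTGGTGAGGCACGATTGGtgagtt
Calr: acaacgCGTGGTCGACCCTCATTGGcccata
Creld2: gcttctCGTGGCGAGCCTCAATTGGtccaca
Dnajc3: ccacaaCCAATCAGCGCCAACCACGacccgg
Herpud1: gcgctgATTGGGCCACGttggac

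Library totals were 20309956 to 31980683 counts in liver and 17070614 to 21387799 in fat, and the lowest member in any library, at 1.25, was above the level that 3 counts give. Levels below are given as CPM (counts brought to the same library total) and compare 1 gene between libraries. The first principal component of the liver libraries (56.2% of variance) put treated liver 1 at −23.3, near the vehicle livers (−36.0 to −28.3) and away from treated livers 2 to 5 (32.4 to 58.0), so liver results are also given without it. That library was singled out by its values in these same data, so calls and p-values without it are not separate support. The tissue labels were checked with marker lists. The hepatocyte list (8 genes) summed to 122209 to 135890 CPM in vehicle livers and to 46128 to 114465 in treated livers, and treated liver 1, also the smallest library, was the highest of the treated. Of its genes edgeR called 2 lower (Ttr and Hnf4a) and 1 higher (Tat), and most of the sum was Alb, which missed the threshold (adjusted p = 0.0742). The adipocyte list summed to 11588 to 22271 CPM in vehicle fat and 18632 to 22296 in treated fat. In liver, the adipocyte genes Adipoq, Plin1, Lep and Retn were at or under 3 counts in all 10 libraries. In fat, the hepatocyte list was not absent, at 154 to 774 CPM in vehicle and 161 to 1043 CPM in treated libraries. The source of this signal was not tested. Pancreatic enzyme genes, from a gland rich in these folding genes, summed to at most 9.19 CPM in liver and 44.2 in fat. Among other lists in liver, fibroblast genes (3 of 6 called lower) summed to 196 to 294 CPM in vehicle and 132 to 222 in treated livers. Macrophage genes (1 of 8 called higher, Cd163) summed to 367 to 488 and 356 to 644 CPM. Endothelial genes (3 of 6 called lower and 1 higher) summed to 141 to 163 and 130.5 to 166 CPM. Of the adipocyte list, 4 of 8 genes passed the filter in liver (3 called lower, Fabp4, Pparg and Lipe). The list summed to 72.6 to 163 and 30.5 to 82.0 CPM. With Adipoq, Plin1, Lep and Retn at or under 3 counts, this sum does not measure adipocytes in liver. Plasma cell and B cell genes (0 called) summed to 153 to 267 and 92.8 to 195 CPM. The part of these shifts in the liver results was not tested. In these bulk samples fewer cells of a type and less RNA per cell cannot be told apart.

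In vehicle livers the 3 most abundant members on the per-length scale, the deposited FPKM, were folding genes, while some other folding genes ranked low. Hspa5 came first at 623 ± 243 FPKM (SD, n = 5), followed by Hsp90b1, the ER-resident HSP90, at 481 ± 138 and Calr, the lectin chaperone calreticulin, at 414 ± 63.9. Herpud1, a membrane factor of degradation, stood at 306 ± 55.4 FPKM and Pdia3, a disulfide isomerase that works with calreticulin, at 239 ± 41.3. The sensor Ern1 (10.4 ± 2.46 FPKM), Derl3 (11.1 ± 5.93) and the oxidase Ero1l, which supplies oxidizing power to the disulfide isomerases (7.09 ± 2.35), were the 3 lowest. Hspa5 and Hsp90b1, like Hsp90b1 and Calr, differed by less than their spread. In vehicle fat Calr led at 433 ± 84.7 FPKM (n = 3), ahead of Hspa5 at 399 ± 189.6 by less than the spread, and Derl3 was lowest at 1.45 ± 0.446.

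The question for the drug was which parts of this machinery changed in liver. Treated livers had higher transcripts of the channel and its partners (Sec61a1, Sec61b, Sec61g, Ssr2), of Derl1 and of Ern1, by 1.43 to 2.06-fold, and lower Sel1l, at 0.63-fold. None of the 9 chaperones, Hspa5 and Hsp90b1 among them, passed the test. A total of 6 of 33 members were called higher (12.7% of the 12311 genes tested were) and 1 lower (10.5% of genes), at an edgeR adjusted p under 0.05. The share of members called, 7 of 33, was thus near that of all genes (23.2%). DESeq2 called 10 (29.4% of genes), among them the same 7. The median log2 fold change was −0.044 over the members and 0.017 over all genes, with 16 members positive and 17 negative. No member had treated livers that were all above or all below the vehicle livers (11.7% of genes did).

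**Figure D1:**
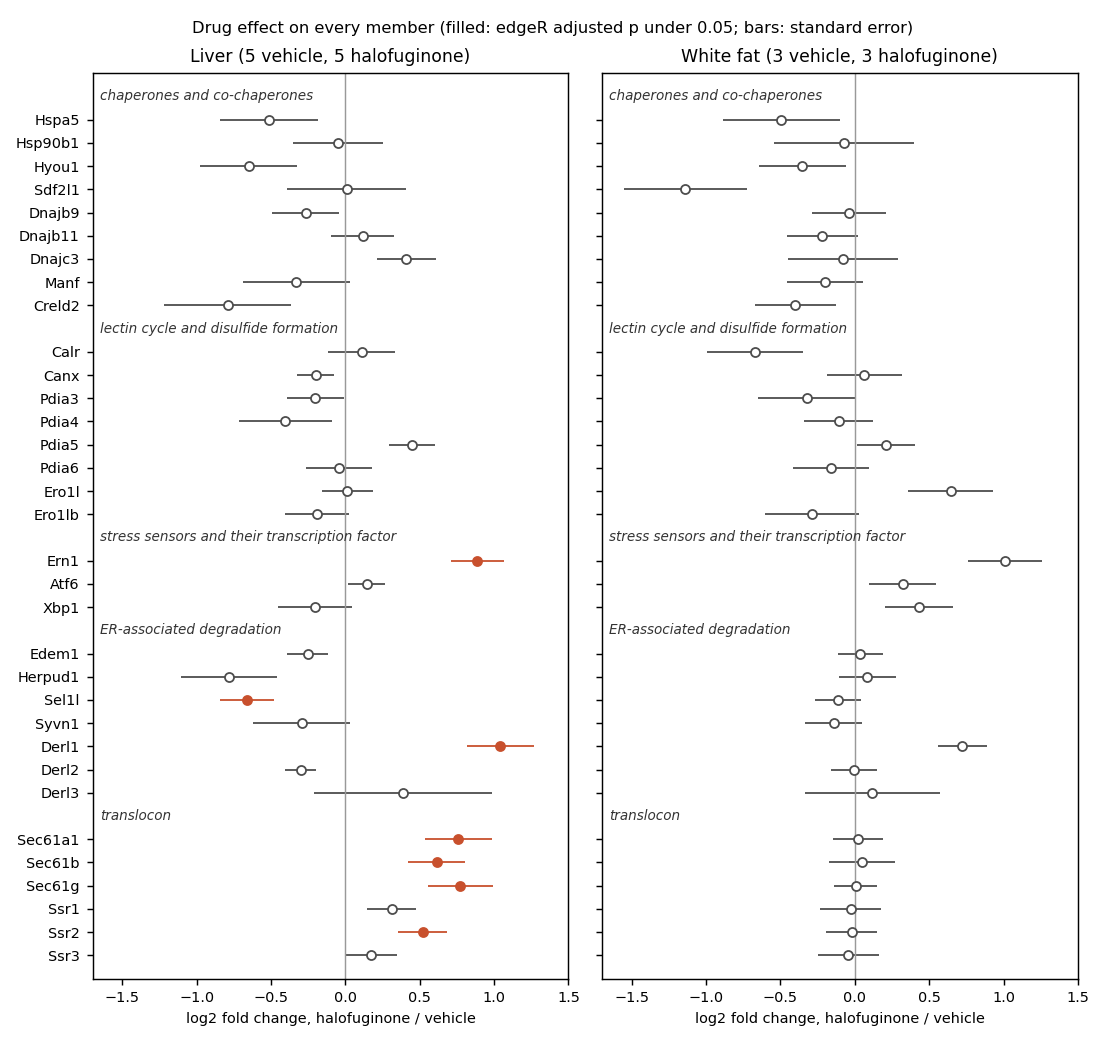
Log2 fold change of each of the 33 genes (points, with standard error bars) in liver (left, 5 against 5 libraries) and white fat (right, 3 against 3), ordered by role. Filled points passed an edgeR adjusted p under 0.05: 7 in liver, of which 4 belong to the translocon, and 0 in fat.

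The translocon genes lay on 1 side. All 6 had positive log2 fold changes in liver, also under both other scalings, with a median of 0.57. Of the 6, 4 were called higher (12.7% of all genes were). Positive values also prevailed in related lists described below, with 16 of 19 other genes of translocation and signal cleavage and 15 of 17 of N-glycosylation. Over all other pathway genes tested, 98 of 130 were positive. Sec61a1, the pore-forming subunit, stood at 139, 139, 159, 109.7 and 134 CPM in the vehicle livers and at 112, 278, 283, 209 and 271 CPM in the treated livers. Treated livers 2 to 5 were all above the highest vehicle liver, and treated liver 1 was inside the vehicle range. The means were 136 ± 17.5 and 230.2 ± 72.7 CPM (SD, n = 5 each), or 0.76 as a log2 fold change (edgeR adjusted p = 0.0334, SE 0.22). The small subunit Sec61b gave 24.3, 21.8, 30.6, 22.9 and 28.0 CPM in vehicle and 21.7, 47.2, 47.0, 36.7 and 42.6 CPM in treated livers. It had the same split, with treated liver 1 just under the lowest vehicle liver and the others above the highest. Its log2 fold change was 0.61 (SE 0.19, edgeR adjusted p = 0.0402). Sec61g, the other small subunit, gave 8.44, 11.5, 12.0, 9.07 and 9.31 CPM in vehicle and 9.19, 23.9, 20.4, 15.2 and 17.0 CPM in treated livers, where only treated liver 1 overlapped with vehicle. Its log2 fold change was 0.77 (SE 0.22, edgeR adjusted p = 0.0287).

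The Ssr genes encode the translocon-associated protein (TRAP) complex, which helps some chains to enter the channel. Ssr2 stood at 66.5, 60.4, 68.2, 56.6 and 65.2 CPM in vehicle and 55.5, 115, 101, 84.0 and 99.4 CPM in treated livers, or 0.52 as a log2 fold change (edgeR adjusted p = 0.0423, SE 0.17). Treated liver 1 was below all vehicle livers and the other 4 above them. Ssr1 had a log2 fold change of 0.31 (adjusted p = 0.193) and Ssr3 of 0.17 (adjusted p = 0.474), neither called by edgeR. The calls of Sec61a1, Sec61b, Sec61g and Ssr2 changed when libraries were left out. When each library was left out in turn, Sec61a1 and Ssr2 were called in 1 of 10 fits, Sec61b in 2 and Sec61g in 3, with edgeR adjusted p up to 0.0815, 0.0977, 0.0991 and 0.0709 respectively. The fits that kept a call left out treated liver 1 (all 4 genes), vehicle liver 3 (Sec61b and Sec61g) or treated liver 4 (Sec61g). The log2 fold changes moved less, from 0.67 to 0.91 for Sec61a1, 0.52 to 0.74 for Sec61b, 0.61 to 0.91 for Sec61g and 0.41 to 0.63 for Ssr2. Over all genes, the number called was 1275 to 5312 in these fits, against 2850 with all libraries.

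**Figure D2:**
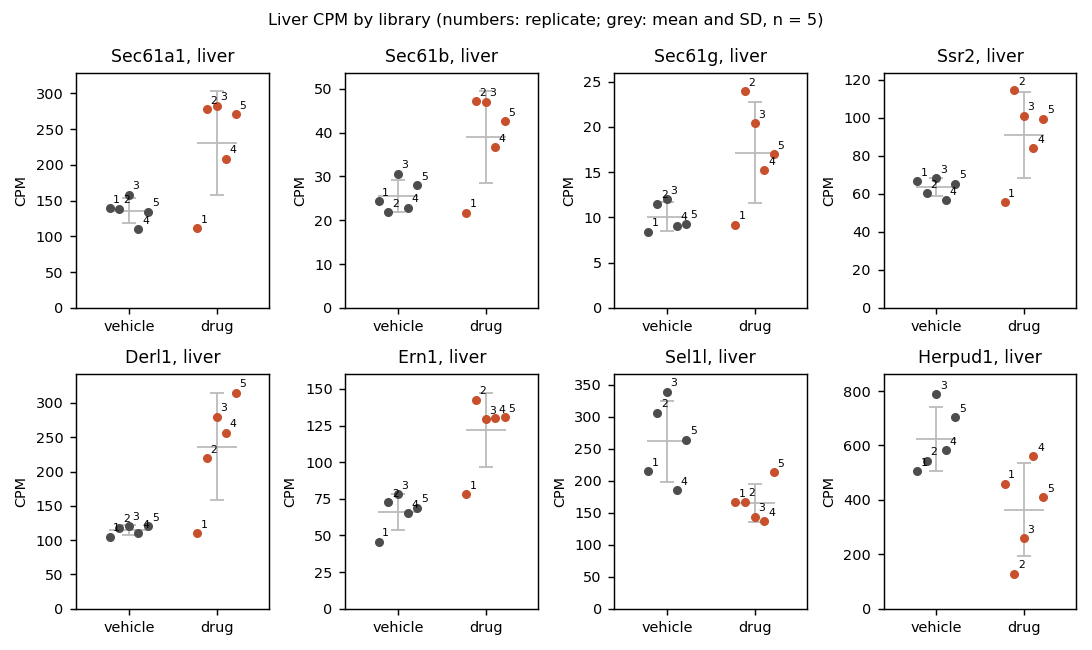
CPM (vertical axis, from 0) of 8 genes in each liver library, vehicle in grey and halofuginone in red, with replicate numbers, group mean and SD (n = 5). Treated liver 1 sits with the vehicle libraries for the Sec61 genes, Ssr2 and Derl1, and Herpud1 spreads from 129 to 561 CPM among treated livers.

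Of the 3 stress genes, 1 was called. Ern1, the IRE1 kinase and nuclease, stood at 45.7, 72.6, 78.2, 65.1 and 68.9 CPM in vehicle and 78.1, 143, 129, 129.98 and 131 CPM in treated livers. Treated livers 2 to 5 were close together and well above vehicle, and treated liver 1 was level with the highest vehicle liver. The means were 66.1 ± 12.4 and 122 ± 25.2 CPM (SD, n = 5 each), or 0.89 as a log2 fold change (edgeR adjusted p = 0.0100, SE 0.18). The transcript of Xbp1, the factor that IRE1 activates by splicing, gave 286, 494, 501, 351 and 319 CPM in vehicle and 246, 513, 224, 309 and 399 CPM in treated livers, with the groups interleaved. Its log2 fold change was −0.21 (SE 0.25, edgeR adjusted p = 0.566). Counts per gene do not separate spliced from unspliced Xbp1. Atf6, the sensor that becomes a transcription factor when cut, gave 131, 122, 142, 107 and 119 CPM in vehicle and 122, 127, 137, 126 and 175 CPM in treated livers. Only treated liver 5 was above the vehicle range, and the log2 fold change was 0.14 (SE 0.12, edgeR adjusted p = 0.416).

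Degradation factors went in both directions. Derl1, a derlin of the membrane complex that moves proteins out of the ER, had the highest fold change of the set, with 105, 118, 121, 109.8 and 121 CPM in vehicle and 110.5, 219.6, 279.9, 256 and 315 CPM in treated livers. The vehicle livers were tightly grouped, treated liver 1 was among them, and the other 4 were all above. The means were 115 ± 7.29 and 236 ± 78.5 CPM (SD, n = 5 each), or 1.04 as a log2 fold change (edgeR adjusted p = 0.0120, SE 0.23). Derl1 and Ern1 were the only members called in all 10 fits that left out 1 liver library. Sel1l, the partner that holds the ubiquitin ligase of this pathway in place, gave 215, 306, 339, 186 and 264 CPM in vehicle and 167, 167, 144, 137 and 214 CPM in treated livers. Treated livers 1 to 4 were below every vehicle liver and treated liver 5 overlapped with them. The log2 fold change was −0.66 (SE 0.18, edgeR adjusted p = 0.0262), and Sel1l was called in 5 of 10 fits without 1 library, with adjusted p up to 0.0710. The call was lost without vehicle liver 2, 3 or 5 or treated liver 3 or 4.

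Herpud1, which helps to assemble the ligase complex, gave 505, 544, 788, 583 and 703 CPM in vehicle and 460.1, 129, 258, 561 and 409 CPM in treated livers. Treated livers 2 and 3 were far below the vehicle range, treated livers 1 and 5 below it, and treated liver 4 inside it. The log2 fold change of −0.78 (SE 0.32) missed the threshold in edgeR (adjusted p = 0.0983) and passed it in DESeq2. Derl2, a close relative of Derl1, had a log2 fold change of −0.30 (edgeR adjusted p = 0.0538), opposite in sign to Derl1. Edem1, a mannosidase-like factor that marks glycoproteins for degradation, was at −0.25 (adjusted p = 0.198). Syvn1, the ligase itself, and Derl3 did not pass the test either, and Derl3 ranged from 2.35 to 34.8 CPM among treated livers alone.

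None of the 9 chaperones and co-chaperones was called in liver by edgeR, 0 had an unadjusted p under 0.05 (39.1% of genes did), and DESeq2 and limma called 0 of them. Hspa5, which encodes the central ER chaperone BiP, gave 1271, 2120.0, 2974, 1050.0 and 1812 CPM in vehicle and 742, 1610.5, 1424, 838 and 1854 CPM in treated livers. The groups overlapped over much of their range, although treated livers 1 and 4 were below all vehicle livers. The means were 1845 ± 760.4 and 1294 ± 486 CPM (SD, n = 5 each), or −0.51 as a log2 fold change (edgeR adjusted p = 0.267, SE 0.33). Hsp90b1 gave 1328, 1425, 2130.4, 888 and 1443 CPM in vehicle and 919, 2063, 1833, 771 and 1385 CPM in treated livers, which covered nearly the same span. Its log2 fold change was −0.049 (SE 0.30, adjusted p = 0.918) and turned positive, at 0.15, when libraries were scaled by size alone.

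Among the other chaperone genes, Hyou1, a nucleotide exchange factor of BiP, had a log2 fold change of −0.65 (edgeR adjusted p = 0.163). Creld2, a secreted ER stress marker with disulfide isomerase activity, was at −0.79 (adjusted p = 0.188). Dnajc3, a J-domain co-chaperone of BiP, was at 0.41 (adjusted p = 0.149). A total of 3 of the 9 had positive and 6 negative values, with 4 and 5 when libraries were scaled by size alone. Standard errors were wide in most of this group, with a median of 0.33 against 0.18 in the translocon. A change of modest size was thus harder to detect in most of these genes. Errors were narrower for Dnajc3 (SE 0.20), Dnajb11 (0.21) and Dnajb9 (0.23). Of the 8 lectin and disulfide genes, 0 were called by edgeR and 1, Pdia5, had an unadjusted p under 0.05, and DESeq2 called it. Pdia5, a disulfide isomerase linked to ATF6, had a log2 fold change of 0.45 (edgeR adjusted p = 0.0587). Pdia4, another isomerase, was at −0.41 (adjusted p = 0.360).

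The division by promoter can be set beside these values. The 11 genes with an ERSE or ERSE-II (Calr, Canx, Creld2, Derl3, Dnajc3, Ero1lb, Herpud1, Hsp90b1, Hspa5, Pdia6 and Syvn1) had a median log2 fold change of −0.19 in liver, 8 were negative, and edgeR called 0. In this class DESeq2 called Herpud1, and edgeR with the replicate number as a block called Creld2. Among the 16 with neither element, 3 were called higher (Ern1, Sec61b and Sec61g) and 1 lower (Sel1l), with a median of 0.011. That share, 4 of 16, was near the 23.2% of all genes. The promoters of Derl1, Sec61a1 and Ssr2 were not analysed here, nor those of Atf6, Hyou1 and Manf. No difference between these classes was tested.

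Treated liver 1 was chosen for lying near vehicle in these data, which favours larger effects and lower p-values without it. Leaving it out raised the count of called members to 8 higher (21.2% of genes) and 2 lower (21.6%), and also raised the count over all genes. Derl1 then had a log2 fold change of 1.20 (edgeR adjusted p = 2.72e-05), Ern1 of 0.99 (adjusted p = 0.000252) and Sec61a1 of 0.91 (adjusted p = 0.000327). Pdia5 (0.52, adjusted p = 0.00823), Ssr1 (0.41, adjusted p = 0.0157) and Derl2 (−0.35, adjusted p = 0.0150) were called in addition. Without this library 7 members had treated livers all above vehicle (18.7% of genes) and 0 all below (16.1%). They were Derl1, Ern1, Pdia5, Sec61a1, Sec61b, Sec61g and Ssr2. Hspa5 and Hsp90b1 were not called here either, with edgeR adjusted p of 0.347 and 0.922. Treated liver 1 itself was inside the vehicle range for 16 members, below it for 17 and above it for 0.

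The vehicle livers ranked alike over most of the set, not in the folding genes alone. Vehicle liver 3 was the highest of the 5 vehicle livers for 31 of 33 members, whereas 21.9% of tested genes were highest there. These included 8 of 9 chaperones, 7 of 7 degradation genes and 6 of 6 translocon genes. Vehicle liver 4 was the lowest for 23 of 33, against 19.2% of genes. The ratio of the highest to the lowest vehicle liver had a median of 2.45 over the chaperones and 1.42 over the translocon, and reached 3.97 for Creld2 and 4.22 for Derl3. The coefficient of variation among vehicle livers had a median of 36.7% in chaperones and 13.7% in the translocon, against 12.9% over all tested genes. Treated livers showed the same kind of spread. On the mean log2 difference from vehicle over the 9 chaperones, treated livers 1 and 4 were at −0.81 and −0.92 and treated livers 2 and 5 at 0.20 and 0.25. Vehicle livers ran from −0.65 to 0.63 on this measure. Treated liver 4 was thus low in chaperones while its Derl1 and Ern1 were within the range of treated livers 2, 3 and 5.

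**Figure D3:**
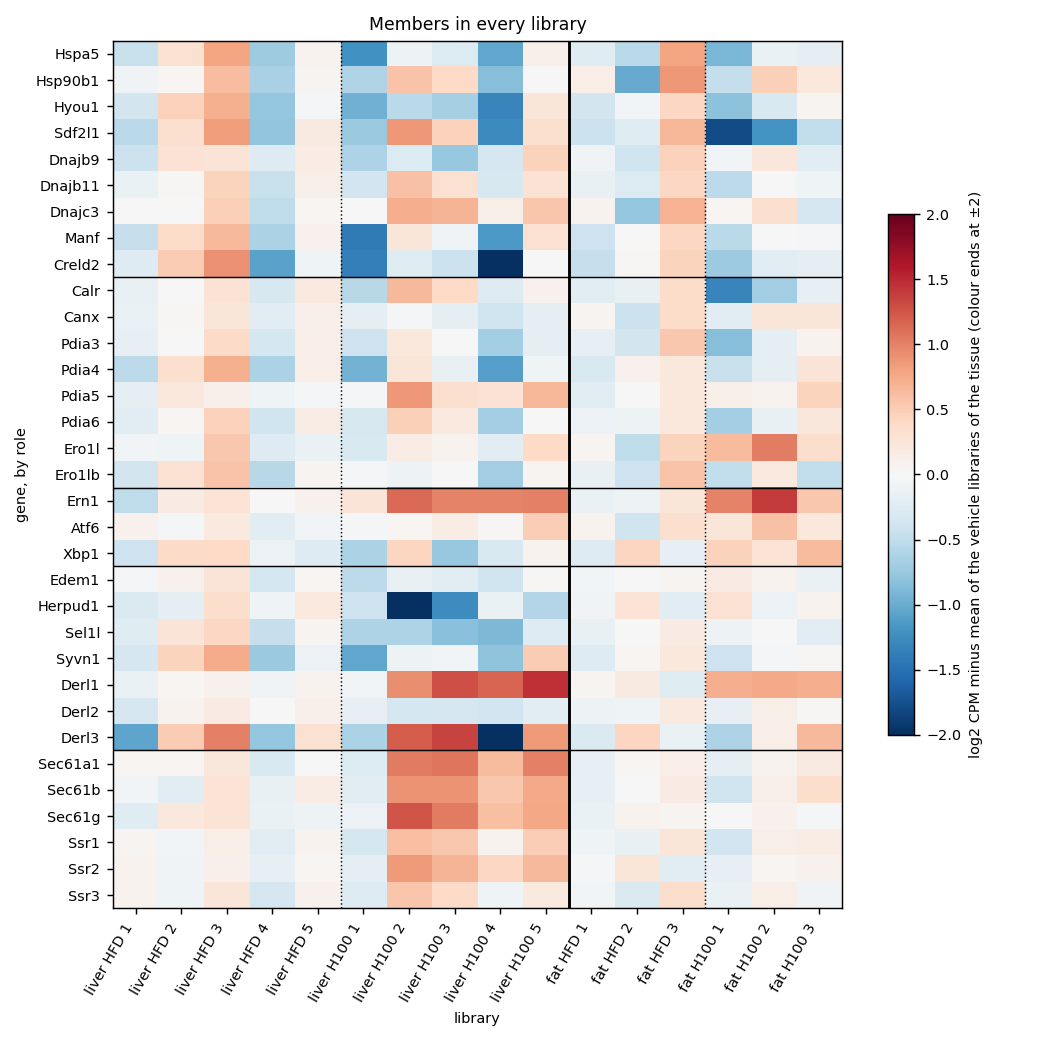
Log2 CPM of each gene in each of the 16 libraries minus the mean of the vehicle libraries of the same tissue (red above, blue below, colour ends at ±2). Vehicle liver 3 is red and vehicle liver 4 blue over most chaperones, and treated livers 2 to 5 are red over the Sec61 rows, Derl1 and Ern1.

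In white fat the same comparison gave no calls for the set, but it could detect little. In simulated counts with the depths and spread of these libraries, the fat fit recovered 8.2% of log2 fold changes of size 1. The liver fit recovered 71%. For size 2 the shares were 65.3% in fat and 98% in liver. The simulation changed few genes, drawn at random over all levels, so these shares are not the detection rates of the members. The lack of calls in fat is thus not evidence of no change. The edgeR fit called 0 of 33 members and 0 of the 14030 genes tested (0%), DESeq2 called 2 members (5.15% of genes) and limma on FPKM called 0. In 1 fit of all groups Ern1 was called (2.25% of genes). At an unadjusted p under 0.05, 2 members were higher (5.5% of genes), Ern1 and Derl1, and 1 was lower (7.91%), Sdf2l1. These 3 were also those whose treated and vehicle libraries did not overlap (20.6% of genes did not). Ern1 gave 29.7, 30.3 and 38.5 CPM in vehicle and 64.9, 86.3 and 47.3 CPM in treated fat. All 3 treated libraries were above all vehicle libraries, with a log2 fold change of 1.01 (SE 0.25, adjusted p = 0.198 in edgeR and 0.0111 in DESeq2). Derl1 gave 206, 224 and 167 CPM in vehicle and 326, 332 and 326 CPM in treated fat. The treated libraries were nearly equal and above vehicle, with a log2 fold change of 0.72 (SE 0.16, adjusted p = 0.174 in edgeR and 0.000516 in DESeq2). Both are also the members called in liver whichever library was left out.

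Sdf2l1, a partner of the BiP co-chaperones, gave 30.2, 34.3 and 64.2 CPM in vehicle and 11.8, 17.8 and 28.9 CPM in treated fat, without overlap. Its log2 fold change was −1.14 (SE 0.41, edgeR adjusted p = 0.319). In liver its means were 34.5 ± 15.3 CPM in vehicle and 34.6 ± 18.3 in treated libraries (SD, n = 5 each). Hspa5 gave 881, 717 and 1805 CPM in vehicle and 552, 953 and 913 CPM in treated fat, where vehicle fat 3 stood far above the rest. Its log2 fold change was −0.49 (SE 0.40, edgeR adjusted p = 0.641), and without vehicle fat 3 it was 0.015. Hsp90b1 gave 765, 349 and 1280.5 CPM in vehicle and 505, 968 and 805 CPM in treated fat, all within the vehicle range, with a log2 fold change of −0.072 (SE 0.47, adjusted p = 0.967). It turned positive, at 0.45, without vehicle fat 3.

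Vehicle fat 3 was the highest vehicle library for 27 of 33 members and for all 9 chaperones, against 39.4% of tested genes. The same library had the lowest adipocyte sum, 11588 CPM, and the highest macrophage sum, 12085 CPM. Over the groups the macrophage list (8 genes) ran from 5062 to 12085 CPM in vehicle and from 4092 to 4783 in treated fat, the fibroblast list (6 genes) from 4207 to 6192 and from 2999 to 3546. The plasma cell and B cell list (10 genes), which marks cells rich in ER, ran from 1243 to 2517 CPM in vehicle and from 924 to 1289.7 in treated fat. Of these lists 5, 4 and 3 genes were lower at an unadjusted p under 0.05, and 0 were called by edgeR. Their part in the values of the folding genes in fat was not tested. All 9 chaperones had negative log2 fold changes in fat, with none called. Scaling by size alone left 7 of 9 negative and limma on FPKM 6 of 9. Without vehicle fat 3, Hsp90b1 (0.45), Dnajc3 (0.32), Dnajb9 (0.23), Manf (0.030), Dnajb11 (0.019) and Hspa5 (0.015) turned positive. Sdf2l1, Creld2 and Hyou1 stayed negative. The negative sign of most chaperones in fat thus depended on this 1 vehicle library.

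Xbp1 gave 234, 379.5 and 249 CPM in vehicle and 387, 339 and 438 CPM in treated fat. Vehicle fat 2 overlapped with the treated libraries, and the log2 fold change was 0.43 (SE 0.23, edgeR adjusted p = 0.471). Atf6 gave 94.4, 67.7 and 112 CPM in vehicle and 106, 134 and 103 CPM in treated fat, also overlapping, with a log2 fold change of 0.32 (adjusted p = 0.585). Calr was at −0.67 (SE 0.32, adjusted p = 0.423) and Ero1l at 0.64 (SE 0.28, adjusted p = 0.390). The 6 translocon genes had a median log2 fold change of −0.0065 in fat, with 0 called and 0 at an unadjusted p under 0.05 (13.4% of genes). Sec61a1, for instance, gave 137, 156 and 166 CPM in vehicle and 133, 161 and 173 CPM in treated fat, nearly the same values. Sel1l was at −0.11 in fat (adjusted p = 0.804).

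**Figure D4:**
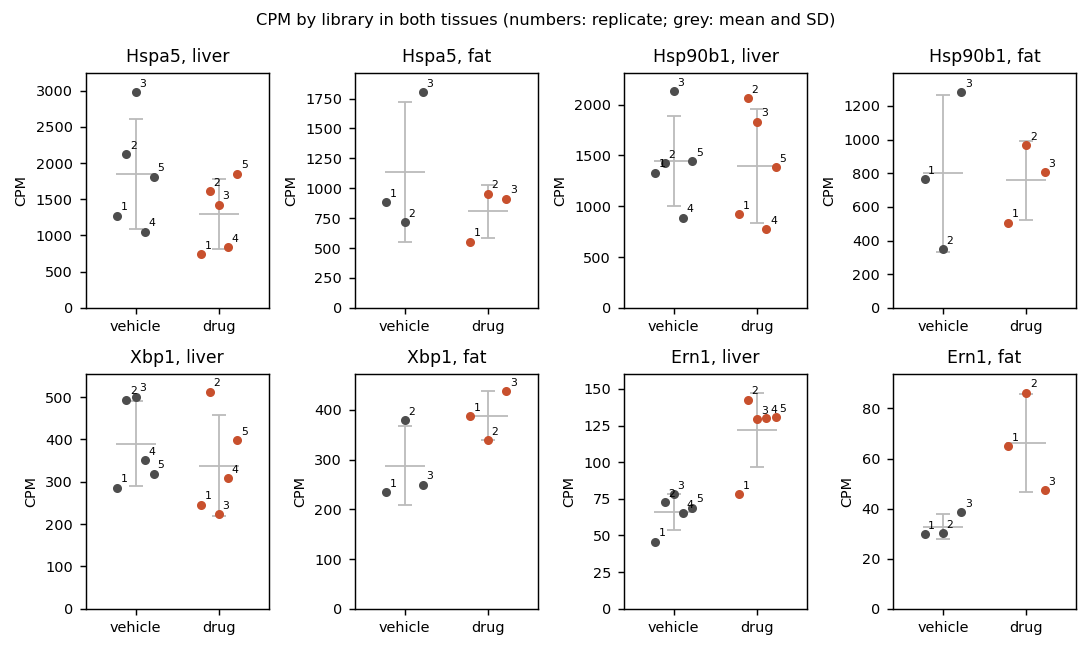
CPM (vertical axes, from 0) of Hspa5, Hsp90b1, Xbp1 and Ern1 in each library of liver (n = 5 per group) and fat (n = 3 per group), vehicle in grey and halofuginone in red, with replicate numbers, mean and SD. Ern1 is the gene of the 4 whose treated fat libraries are all above vehicle, and vehicle fat 3 carries the highest Hspa5 and Hsp90b1.

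Whether the drug effect differed between tissues was tested as the change in fat less the change in liver, in 1 fit of all 16 libraries. No member was called (0 of 33, against 0.949% of 14853 genes) by edgeR, DESeq2 or limma, and 2 had an unadjusted p under 0.05 (15.7% of genes), Sec61g and Sec61a1. The difference was −0.79 for Sec61g (SE 0.32, edgeR adjusted p = 0.244), −0.76 for Sec61a1 (SE 0.34, adjusted p = 0.286) and −0.57 for Ssr2 (SE 0.27, adjusted p = 0.326). Without treated liver 1, edgeR called these 3 (7.07% of genes), at −0.95 (adjusted p = 0.0220), −0.94 (adjusted p = 0.0150) and −0.70 (adjusted p = 0.0389). Because that library was left out for lying near vehicle in these data, these 3 calls are not separate support for a tissue difference. Sel1l differed by 0.53 (SE 0.27, adjusted p = 0.364) and Derl1 by −0.34 (SE 0.34, adjusted p = 0.684). With all libraries, then, no translocon gene was shown to respond differently in the 2 tissues.

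A further 132 genes of the secretory pathway and its stress signalling were looked at, of which 130 were tested in liver. EdgeR called 30 higher (12.7% of all genes were) and 4 lower (10.5%), with a median log2 fold change of 0.22. Several of the lists that follow had a share of calls near that of all genes. Without treated liver 1 the counts rose to 63 higher (21.2% of all genes) and 10 lower (21.6%), with 10 of 19 higher in translocation and signal cleavage, 12 of 17 in N-glycosylation, 12 of 22 in transport from ER to Golgi and 9 of 23 among other folding factors. The counts below are with all libraries. Of 19 other genes of translocation and signal cleavage, 3 were called higher (Ssr4, Srp19 and Srpr) and 0 lower. Ssr4, the remaining TRAP subunit, rose from 39.2 ± 3.29 to 56.2 ± 7.74 CPM (SD, n = 5 each), without overlap between groups, or 0.52 as a log2 fold change (edgeR adjusted p = 0.0111, SE 0.11). Of 17 genes of N-glycosylation, which attaches sugar chains as proteins enter the ER, 3 were higher (Krtcap2, Alg3 and Alg8). Of 22 genes of transport from ER to Golgi, 5 were higher (Sec23a, Sec13, Lman1, Mcfd2 and Copb1) and 1 lower (Sar1b, a small GTPase of the vesicle coat). Other folding factors had 5 of 23 higher (Dnajc10, Fkbp11, Cnpy2, Ganab and Prkcsh) and 0 lower. Fkbp2, a prolyl isomerase of the ER, had all treated livers below vehicle, at 20.96 ± 2.497 against 25.3 ± 0.898 CPM, with a log2 fold change of −0.27. It missed the threshold in edgeR (adjusted p = 0.0525) and passed it in DESeq2 (0.0256) and without treated liver 1 (0.00529). Among other degradation factors Nploc4 was called higher and Vcp, the ATPase that pulls proteins out of the ER membrane, was called lower. Other stress signalling genes had 2 of 16 higher (Crebzf and Wfs1).

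The targets of ATF4 and of CHOP, the stress factor encoded by Ddit3, included the pathway genes with the highest values in liver. There 11 of 15 were called higher and 1 lower (Cebpb), with a median log2 fold change of 1.81, where 12.7% and 10.5% of all genes were. Treated liver 1 was again apart from the other treated livers, at a mean log2 difference from vehicle of 0.056 over the list, inside the vehicle range (−0.19 to 0.34), whereas treated livers 2 to 5 were at 2.14 to 2.41. Without it 14 of 15 were called higher. Asns, which makes asparagine, rose from 0.643 ± 0.410 to 69.2 ± 43.9 CPM (log2 fold change 6.80, SE 0.74), and Trib3, a pseudokinase that restrains ATF4, from 3.99 ± 1.18 to 219 ± 131 CPM (5.78, SE 0.81). Sesn2, a leucine sensor, rose by a log2 fold change of 1.81 (SE 0.26), and the edgeR adjusted p of the 3 genes were 0.000896, 0.00317 and 0.00326. In these 3 genes, the only ones of the list without overlap, treated liver 1 too was above all vehicle livers. Over all genes, 11.7% had groups that did not overlap. In fat 0 of the 132 were called by edgeR, with 13 higher (5.5% of all genes) and 5 lower (7.91%) at an unadjusted p under 0.05, while DESeq2 called 11 and the edgeR fit of all groups 3. Among genes without overlap between groups, the highest values were in Trib3 (3.45), Ddit3 (2.36), Asns (2.12) and Ppp1r15a (1.34), the last encoding a phosphatase subunit that acts on eIF2, with edgeR adjusted p from 0.0954 to 0.216. The lowest were in Sec11c, of the signal peptidase (−0.98), Prdx4, an ER peroxidase (−0.53), Eif2ak3, which encodes PERK (−0.46), and Edem2, a mannosidase of degradation (−0.45), with adjusted p from 0.228 to 0.320. DESeq2 called Trib3 (adjusted p = 8.84e-09), Ddit3 (1.02e-08), Asns (7.74e-06), Ppp1r15a (0.0145) and Prdx4 (0.0275), and the edgeR fit of all groups called Ppp1r15a (0.0238).

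Scaling by library size alone moved the median log2 fold change of all liver genes from 0.017 to 0.17 and the split of liver calls from 1558 higher and 1292 lower to 2789 and 838. The members called under it were the same 7 with Pdia5 in addition (29.5% of genes were called). Nothing in the labels says that libraries of a group came from separate animals, so the p-values measure the spread between these samples, which may be partly technical.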

How the data were processed

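Poly(A) RNA-seq of 10 liver and 6 white fat libraries was used. The authors deposited whole-number counts and FPKM values for each library, per the file headers. The submitters' processing notes name fastp 0.18.0, Bowtie2 2.2.8, HISAT2, StringTie 1.3.1, RSEM and the build mm39, without their roles. The deposited counts may be rounded estimates, since 1 to 31 genes per library paired a zero count with a positive FPKM. Reads shared by paralogs or by overlapping and antisense genes may be split. Groups came from sample titles.

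Separate fits per tissue used edgeR 4.0.16 under R 4.3.3 (filterByExpr filter, TMM, quasi-likelihood test, two-sided, Benjamini-Hochberg over all tested genes), and called means an adjusted p under 0.05. SE was taken as the size of the log2 fold change over the root of F. CPM uses TMM-scaled totals. The biological coefficient of variation was 0.229 in liver and 0.337 in fat. The floor of 3 counts was 0.0983 to 0.150 CPM in liver and 0.139 to 0.180 CPM in fat, for counting error only. The contrast between tissues took all 16 libraries as independent.

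Alternatives were DESeq2 1.42.0, its size factors, library size alone, other filters, 1 fit of all groups, a block for replicate number, robust dispersion, limma 3.58.1 on log2 FPKM (pseudocount 1 or 0.1, mean of at least 1 FPKM) and leaving out each library. Same-numbered libraries did not deviate together (correlations −0.156 to 0.057 in liver and −0.570 to 0.111 in fat), so the numbers were not taken as pairs. The test scripts were tested on simulated data. The members, lists and tests were chosen with earlier results of these data known. Values per library are given for members called in liver, or with an unadjusted p under 0.05 in fat, and for Hspa5, Hsp90b1, Xbp1, Ern1 and Atf6. In liver Herpud1 was added to these after its values were seen. Other pathway genes named with fold changes were the 4 largest rises and falls per tissue whose groups did not overlap and whose higher group reached 5 CPM. The result of 1 other pathway gene is not reported here.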

Additional observations from a re-analysis of the deposited data

Results flagged for a closer look

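Among 78 groups of 5 liver libraries examined for a single library far from its group (gap to the nearest library over 0.71 of the group's range), 4 stood out, and chance alone gives about 3.9. Ero1l was at 43.8 CPM in vehicle liver 3, with the next library at 29.1. Ero1lb was at 61.6 CPM in treated liver 4, with the next at 93.2. Ern1 was at 78.1 CPM in treated liver 1, with the next at 129. Atf6 was at 175 CPM in treated liver 5, with the next at 137.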

How the results depend on the processing

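Over 49 log2 fold changes of single genes, 848 of 933 alternative values kept the direction and the side of the threshold, 42 lost a call, 30 gained one and 13 changed sign. Among these 49, the sign changes were in Hsp90b1 and Hspa5. Members outside them, such as Sdf2l1 and Pdia6 in liver and Ssr1, Ssr2 and Ssr3 in fat, had values near 0 that also changed sign. Hsp90b1 in liver was 0.15 with library size alone and 0.060 and 0.059 with limma at pseudocounts of 1 and 0.1, and −0.25 to 0.12 with 1 library left out. Hsp90b1 in fat was 0.012 with library size alone, 0.040 with the replicate block, 0.13 with limma at both pseudocounts, and −0.43 to 0.45 with 1 library left out, and Hspa5 in fat −0.73 to 0.015. Their cause was not tested. With 1 library left out, called genes were 1275 to 5312 in liver (2850 with all), 0 to 1 in fat and 34 to 1053 in the contrast (141 with all), and called members 2 to 10, 0 to 0 and 0 to 3. In fat, DESeq2 called 723 genes and 2 members, 1 fit of all groups 334 genes and 1 member (Ern1), limma with a pseudocount of 1 called 13 genes, and the fit without a filter 1. In the contrast, DESeq2 called 687, limma with a pseudocount of 1 called 280 and the replicate block 20.

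With the replicate block, 1901 genes and 6 members were called in liver, 4 of the latter as before (15.4% of genes were called). Sec61a1, Sec61b and Ssr2 were not called, at 0.70, 0.57 and 0.48 against 0.76, 0.61 and 0.52 without the block (adjusted p = 0.0619, 0.0572 and 0.0810 with it), and Pdia5 (0.42, adjusted p = 0.0453) and Creld2 (−0.84, 0.0383) were. DESeq2 called 10 members in liver, the 7 with Pdia5, Derl2 and Herpud1. All members were above the level of 3 counts in every library. The lowest, Derl3 in fat at 1.25 CPM, has the least depth behind it.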

Other observations

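Paired genes of the lectin and oxidation steps can be set side by side. Calr, the soluble lectin chaperone, was at 958 ± 164 CPM in vehicle and 1032 ± 336 in treated livers, and Canx, its membrane-bound relative, at 348 ± 44.0 and 303 ± 27.5 (SD, n = 5 each). Ero1l was at 30.9 ± 7.38 and 31.1 ± 6.19 CPM in these groups and its relative Ero1lb at 104 ± 32.9 and 91.0 ± 16.9. In fat Ero1l was at 54.9 ± 17.4 and 85.7 ± 20.2 CPM, and Ero1lb at 43.5 ± 16.2 and 35.6 ± 10.3 (SD, n = 3 each). None of these differences passed the test in edgeR, and no difference between the genes of a pair was tested. Manf, a secreted stress-responsive factor, ranged from 54.3 to 179 CPM among treated livers and from 92.8 to 227 among vehicle livers.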
